A study of Mus musculus with 6 samples.

Results

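Signal peptidase and the Sec61 translocon are the machines that let newly made secretory and membrane proteins into the endoplasmic reticulum and trim them there. The 10 genes described are the signal peptidase genes Sec11a, Sec11c, Spcs1, Spcs2 and Spcs3, the channel genes Sec61a1, Sec61b and Sec61g, and the channel's helper genes Sec62 and Sec63. They were taken by symbol from a table of 23494 genes, all 10 had a row, and all 10 passed the filter of a mean of at least 1 TPM (a length-corrected share of a library's transcripts), as did 12865 genes in all. The set was chosen by a measured value of this contrast, the lower Sec11c level in the rMANF libraries, so every rMANF against vehicle value of these 10 genes is a description and carries no test.

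A ribosome that makes a secretory protein is led to the membrane by the signal recognition particle and its receptor, and the growing chain passes through a channel whose pore is the Sec61 alpha subunit, flanked by the small tail-anchored beta and gamma subunits. Sec62 and Sec63 assist precursors that open the channel poorly, and Sec63 carries a J domain that recruits the chaperone encoded by Hspa5. On the inner side signal peptidase, built on SEC11A or SEC11C as the catalytic subunit with SPCS1, SPCS2 and SPCS3 around it, removes the signal peptide. MANF, mesencephalic astrocyte-derived neurotrophic factor, is itself made with a signal peptide and resides in this compartment, from which it can also be secreted.

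The samples were 3 labelled rMANF, from female wild type C57BL/6 mice given recombinant MANF at 2 µg/kg by daily intraperitoneal injection, and 3 labelled vehicle, from such mice given phosphate-buffered saline. All the mice carried B16F10 melanoma, a transplantable mouse tumour line, under the skin of the flank, and treatment of 8 mice per group began at a mean tumour volume of about 60 mm3. By their labels the samples are heart and the numbered samples of a group are biological replicates. How 3 samples were drawn from 8 mice, and the age of the mice, are not stated in the labels, and the table's column names for the vehicle samples begin with IgG.

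Markers did not bear out the tissue label. The 11 cardiomyocyte markers summed to 8.59 to 12.1 TPM in rMANF libraries and 8.26 to 68.7 TPM in vehicle libraries, the highest sum in vehicle replicate 2. Nppa reached at most 0.541 TPM and Pln at most 0.0432 TPM. The ventricular light chain genes Myl2 and Myl3 were listed at 0 in all 3 rMANF libraries and in vehicle replicate 3. In vehicle replicate 2 they reached 14.9 and 2.22 TPM, and in vehicle replicate 1 1.15 and 0.489 TPM. Spearman correlations between libraries, across genes, ran from 0.938 to 0.952, and read depth is unknown because TPM keeps no record of it. The libraries are therefore named by their labels only, and a lower share of a transcript in such bulk RNA cannot be told apart from fewer cells that make it.

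The coding sequences of the 2 small channel subunits are shown because each has a near-identical copy elsewhere in the mouse genome (GRCm38, GENCODE M21), so that reads can be divided between gene and copy. Sec61b lies on chromosome 4 (47474658 to 47483242, plus strand) and Gm10320, annotated as protein-coding, on chromosome 13 (98489348 to 98492001, minus strand). Over the 288 coding bases of Sec61b, without the stop codon, 5 bases differ, and capitals mark them.
Sec61b: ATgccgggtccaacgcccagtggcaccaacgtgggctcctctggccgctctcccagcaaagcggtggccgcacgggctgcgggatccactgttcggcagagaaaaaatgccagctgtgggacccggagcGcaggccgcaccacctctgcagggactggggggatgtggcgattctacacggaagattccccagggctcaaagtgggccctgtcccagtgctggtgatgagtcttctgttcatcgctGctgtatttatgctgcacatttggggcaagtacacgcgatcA
Gm10320: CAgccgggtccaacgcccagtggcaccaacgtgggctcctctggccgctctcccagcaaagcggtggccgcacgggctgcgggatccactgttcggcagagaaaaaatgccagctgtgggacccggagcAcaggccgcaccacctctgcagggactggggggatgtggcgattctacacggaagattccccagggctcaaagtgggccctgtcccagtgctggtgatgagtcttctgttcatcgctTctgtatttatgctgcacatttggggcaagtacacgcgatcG
Sec61g lies on chromosome 11 (16500530 to 16508484, minus strand), and the transcribed processed pseudogene Gm10177 on chromosome 9 (37252922 to 37253365, plus strand) repeats its 204 coding bases with 0 differences, so the sequence below stands for both.
Sec61g: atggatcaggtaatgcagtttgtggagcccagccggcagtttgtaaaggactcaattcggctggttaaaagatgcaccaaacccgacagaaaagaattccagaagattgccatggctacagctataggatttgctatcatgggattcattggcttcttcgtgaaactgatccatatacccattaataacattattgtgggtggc
Both copies were listed at low levels beside their parent genes. Gm10320 ran from 0.334 to 4.81 TPM over the 6 libraries and Gm10177 from 2.23 to 6.59 TPM, against 313 to 457 TPM for Sec61b and 91.3 to 107 TPM for Sec61g.

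All 10 genes were well expressed in every library, at levels above those of 68.6% (Sec63) to 97.4% (Sec61b) of the tested genes. Averaged over the 6 libraries, the order was Sec61b (369 ± 53.8 TPM, SD, n = 6), Spcs1 (201 ± 12.4), Sec11c (123 ± 29.5), Sec11a (114 ± 5.10), Sec61a1 (109 ± 13.0), Sec61g (98.8 ± 5.93), Spcs2 (85.8 ± 9.56), Spcs3 (76.7 ± 7.75), Sec62 (59.9 ± 7.74) and Sec63 (32.1 ± 4.63). Sec61b stood clear of Spcs1, Spcs1 of Sec11c, and Sec62 of Sec63, with no overlap between the ranges of the 6 libraries. The ranges of all other neighbours overlapped, and Sec11c stood above Sec11a, and Sec11a above Sec61a1, in only 3 of 6 libraries.

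**Figure D1:**
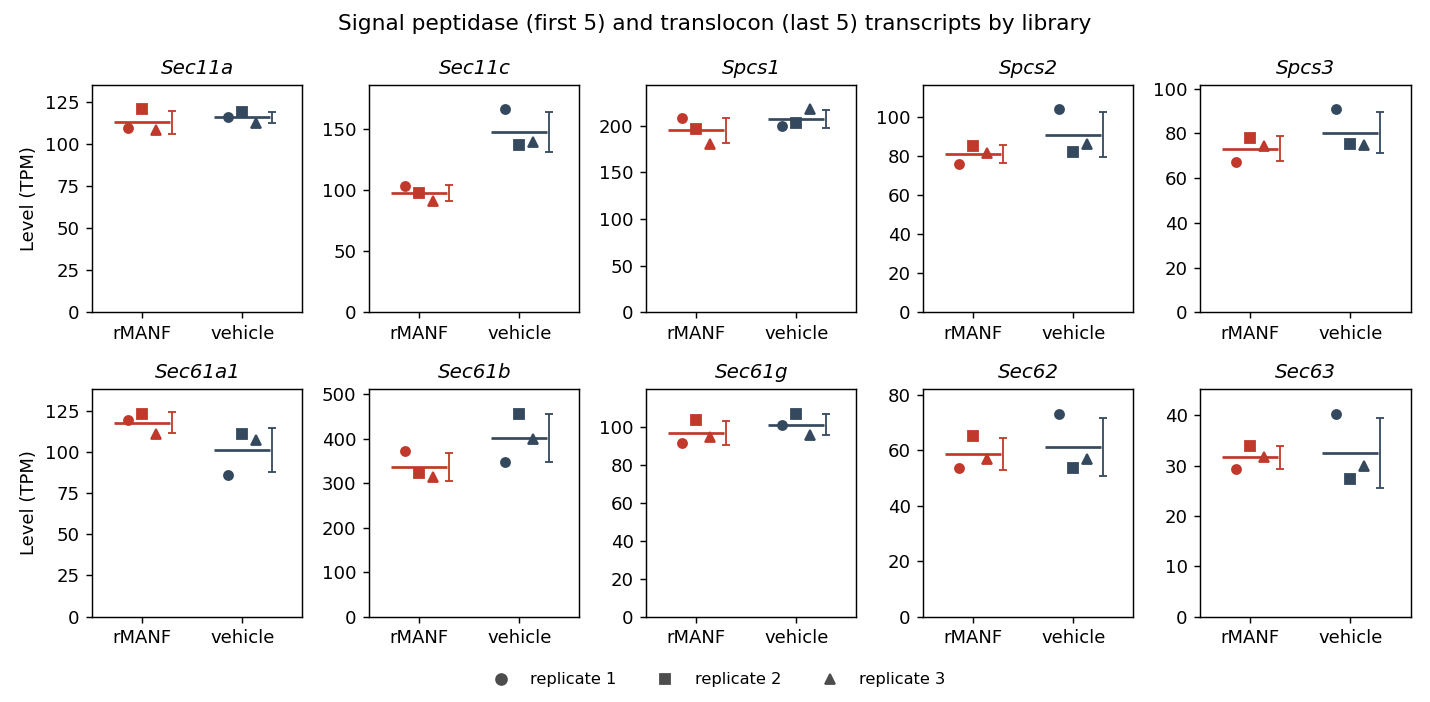
Levels (TPM, linear axes from 0) of the 10 genes in each library, rMANF on the left and vehicle on the right of each panel. Symbols are replicates, horizontal lines group means and bars 1 SD (n = 3). The groups are separate for Sec11c, with 91.3 to 104 TPM in rMANF and 137 to 166 TPM in vehicle libraries, and overlap for the other 9 genes.

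Sec11c was the member that lay lower in the rMANF libraries, the observation for which the set was chosen. It encodes a catalytic subunit of signal peptidase and lies on chromosome 18 (65800515 to 65817684, plus strand). Sec11c measured 104, 98.0 and 91.3 TPM in rMANF replicates 1, 2 and 3, against 166, 137 and 140 TPM in vehicle replicates 1, 2 and 3. Every rMANF library lay below every vehicle library, and vehicle replicate 1 was the highest of all. The means were 97.7 ± 6.28 TPM with rMANF and 148 ± 16.1 TPM with vehicle (SD, n = 3 each), a ratio of 0.661 and a difference of −0.59 ± 0.10 (SE) on the log2(TPM + 1) scale. Without vehicle replicate 1 the difference was −0.50, and without vehicle replicate 2 it was −0.64. Of the 12865 tested genes, 508 (3.95%) had a lower difference.

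Sec11c was the single member of the 10 whose groups did not overlap in the lower direction, and 0 members lay higher without overlap. Over all tested genes the 3 rMANF values lay below the 3 vehicle values for 9.02% and above them for 18.9%. Because this contrast chose the set, nothing is read from the comparison with those shares. The median difference of the 10 genes was −0.08, with 9 values below 0 and 1 above, beside a median of 0.04 over all tested genes.

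Sec11a, the other catalytic subunit gene, differed little between the groups. It lies on chromosome 7 (80904889 to 80947780, minus strand) and measured 109, 121 and 108 TPM in rMANF replicates 1, 2 and 3, against 116, 119 and 112 TPM in vehicle replicates 1, 2 and 3. The groups overlapped, with means of 113 ± 6.80 TPM with rMANF and 116 ± 3.45 TPM with vehicle (SD, n = 3 each) and a log2 difference of −0.04 ± 0.08 (SE). The coding sequences of Sec11a and Sec11c were identical at 72.4% of 537 aligned bases and shared 0 stretches of 31 bases. Of the 31-base stretches in their transcripts, 1.80% for Sec11c and 13.8% for Sec11a occurred in a transcript of any other gene. Sec11a exon bases also overlap Nmb on the same strand (3.53%) and the pseudogene Gm16171 on the other (4.68%).

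The balance of the 2 catalytic subunits was also taken as a proportion within each library, which multiplying a library by a single factor does not alter. Sec11c supplied 48.7%, 44.8% and 45.7% of the summed Sec11a and Sec11c TPM in rMANF replicates 1, 2 and 3, against 58.9%, 53.5% and 55.5% in vehicle replicates 1, 2 and 3. As listed, Sec11a thus gave the larger part in all 3 rMANF libraries and Sec11c in all 3 vehicle libraries. Which gene is larger also depends on length correction and on how reads were assigned, so no switch of the larger part is read from this. The mean shares were 46.4 ± 2.04% with rMANF and 56.0 ± 2.73% with vehicle (SD, n = 3 each), and their difference of −9.54 percentage points stayed between −10.8 and −8.07 when each library was left out in turn. Over all 6 libraries the log2 difference of Sec11c minus Sec11a averaged 0.07 ± 0.33 (SD, n = 6), a mean of 3 rMANF values below 0 and 3 vehicle values above 0, and no test of it is given because the Sec11c values chose the set. Summed, Sec11a and Sec11c reached 210 ± 9.73 TPM with rMANF and 263 ± 16.4 TPM with vehicle.

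**Figure D2:**
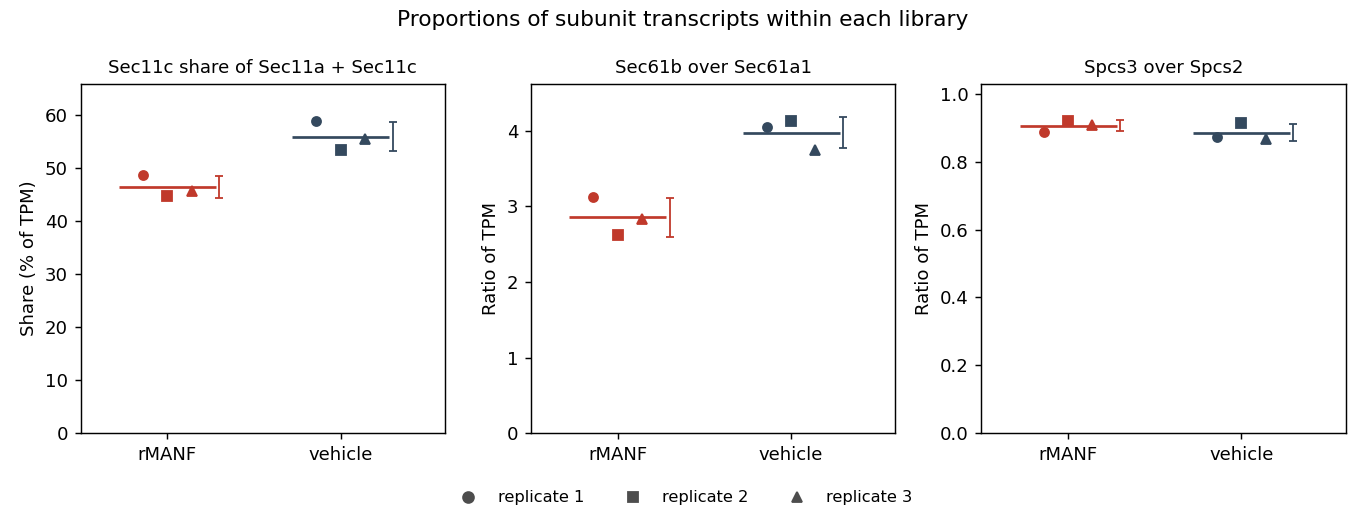
Proportions of subunit transcripts in each library, rMANF on the left and vehicle on the right. The first panel gives Sec11c as a percentage of Sec11a plus Sec11c TPM, the others ratios of TPM, with symbols for replicates, lines for means and bars of 1 SD (n = 3). The Sec11c share and the Sec61b to Sec61a1 ratio are lower in every rMANF than in every vehicle library, while the Spcs3 to Spcs2 ratio overlaps. Sec61a1 is taken as listed, and its level is uncertain.

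The 3 non-catalytic signal peptidase genes lay slightly lower on average with rMANF, and in each the groups overlapped. Spcs2 encodes a subunit that spans the membrane beside the catalytic one, and it lies on chromosome 7 (99837569 to 99863462, minus strand). It measured 75.8, 85.0 and 81.6 TPM in rMANF replicates 1, 2 and 3, against 104, 82.3 and 86.2 TPM in vehicle replicates 1, 2 and 3. Its log2 difference of −0.16 ± 0.11 (SE) was −0.06 without vehicle replicate 1, the library that held the highest value. Spcs3, the gene of an accessory subunit needed for cleavage (chromosome 8, 54520433 to 54529998, minus strand), measured 67.3, 78.1 and 74.2 TPM in rMANF replicates 1, 2 and 3, against 90.8, 75.1 and 74.7 TPM in vehicle replicates 1, 2 and 3, a difference of −0.13 ± 0.11 that was −0.03 without vehicle replicate 1.

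Spcs2 and Spcs3 kept a nearly fixed proportion. The ratio of Spcs3 to Spcs2 ran from 0.867 to 0.920 over the 6 libraries, and averaged 0.906 ± 0.0163 with rMANF and 0.885 ± 0.0250 with vehicle (SD, n = 3 each). With quantile normalization or with median-of-ratios scaling both genes joined Sec11c in lying lower without overlap, so whether their groups overlap depended on the scaling.

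Spcs1 encodes the smallest of the accessory subunits, on chromosome 14 (30999826 to 31001672, minus strand). It was the most abundant signal peptidase transcript and measured 208, 196 and 181 TPM in rMANF replicates 1, 2 and 3, against 200, 203 and 218 TPM in vehicle replicates 1, 2 and 3. The groups overlapped (log2 difference −0.09 ± 0.08, SE). Of the Spcs1 exon bases, 16.3% overlap the gene Glt8d1 on the other strand, which measured 25.1 to 38.7 TPM. Without Sec11c, the other 4 signal peptidase genes summed to 462 ± 17.7 TPM with rMANF and 494 ± 15.6 TPM with vehicle, and the groups overlapped.

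In the channel itself Sec61b, the beta subunit gene and the most abundant member, averaged lower with rMANF, with overlapping groups. Sec61b measured 373, 323 and 313 TPM in rMANF replicates 1, 2 and 3, against 348, 457 and 401 TPM in vehicle replicates 1, 2 and 3. Only vehicle replicate 1 reached into the rMANF range, and the means were 336 ± 32.4 TPM with rMANF and 402 ± 54.3 TPM with vehicle (SD, n = 3 each; log2 difference −0.25 ± 0.12, SE). Without vehicle replicate 1 the Sec61b difference was −0.35 and the groups no longer overlapped, and without vehicle replicate 2 it was −0.16.

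Sec61a1, the pore subunit gene (chromosome 6, 88503579 to 88518905, minus strand), had the single difference above 0 as listed, and its reads are shared with an antisense gene. It measured 119, 123 and 111 TPM in rMANF replicates 1, 2 and 3, against 86.0, 111 and 107 TPM in vehicle replicates 1, 2 and 3. The lowest rMANF value equalled the highest vehicle value at the precision of the table, so the groups touched. The means were 118 ± 6.41 TPM with rMANF and 101 ± 13.3 TPM with vehicle (log2 difference 0.22 ± 0.11, SE), and without vehicle replicate 1 the difference was 0.11.

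The level of Sec61a1 is uncertain because the antisense gene Gm44170 (chromosome 6, 88503605 to 88504277, plus strand) overlaps 549 of its exon bases, and the library kit does not mark strand. Gm44170 was listed at 109, 109 and 111 TPM in rMANF replicates 1, 2 and 3, against 125, 124 and 116 TPM in vehicle replicates 1, 2 and 3. It thus stood at a level near that of Sec61a1 and lay lower in every rMANF library than in every vehicle library. Summed, the 2 genes reached 227 ± 5.37 TPM with rMANF and 223 ± 11.9 TPM with vehicle (SD, n = 3 each), and the log2 difference of the sum was 0.03. TPM is corrected for length, and Gm44170 is shorter than the longest coding transcript of Sec61a1 (3172 bases). The sum therefore gives a Gm44170 read more weight than a Sec61a1 read, and its difference of 0.03 does not settle that of Sec61a1. Reads of the overlap cannot be assigned to a strand, and no direction is given for Sec61a1.

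**Figure D3:**
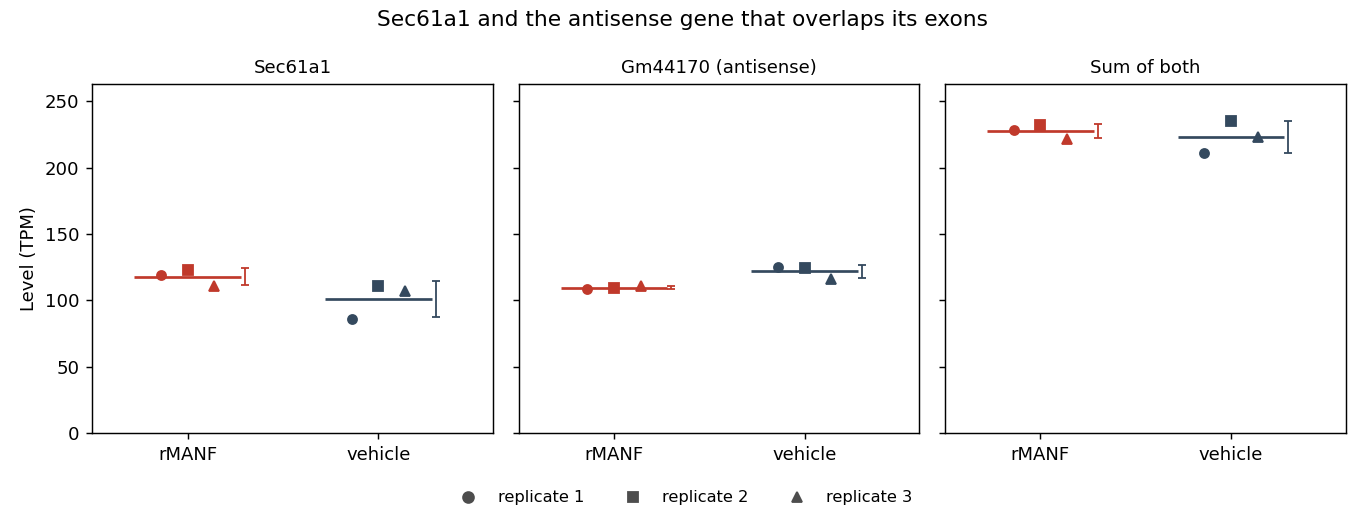
Levels (TPM, linear axes from 0) of Sec61a1, of the antisense gene Gm44170 and of their sum in each library, rMANF on the left and vehicle on the right. Symbols are replicates, lines means and bars 1 SD (n = 3). Sec61a1 averages 118 and 101 TPM, Gm44170 110 and 122 TPM, and the sum 227 and 223 TPM in rMANF and vehicle libraries. TPM is corrected for length, so the sum is not a sum of reads.

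The ratio of beta to alpha subunit transcripts, with Sec61a1 as listed, was lower with rMANF, and it carries the uncertainty of the Sec61a1 level. Sec61b over Sec61a1 was 3.13, 2.62 and 2.83 in rMANF replicates 1, 2 and 3, against 4.05, 4.13 and 3.75 in vehicle replicates 1, 2 and 3, with no overlap. With Gm44170 added to Sec61a1, a sum of TPM and not of reads, the ratio was 1.64, 1.39 and 1.41 in the rMANF libraries. The vehicle libraries gave 1.65, 1.94 and 1.80, again with no overlap, though replicate 1 of each group lay close together. Sec61g, the gamma subunit gene, did not share the lower level of Sec61b to that extent. It measured 91.3, 104 and 94.7 TPM in rMANF replicates 1, 2 and 3, against 101, 107 and 95.6 TPM in vehicle replicates 1, 2 and 3, overlapping groups with a log2 difference of −0.07 ± 0.09 (SE).

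Sec61a2, the paralogue of the pore subunit gene, gave 21.8% to 23.1% of the summed Sec61a1 and Sec61a2 TPM with rMANF and 23.2% to 27.9% with vehicle. Sec61a1 exceeded it in 6 of 6 libraries by 1.63 ± 0.18 log2 units (SD), with p = 0.03125 in an exact two-sided sign-flip permutation test, the smallest that 6 libraries allow. Adjusted over the 2 paralogue comparisons computed, the other being Sec11c with Sec11a, the p was 0.0625, which missed the threshold of 0.05. Given the result of that other comparison, 6 libraries allowed no lower adjusted p, so nothing is concluded from the miss. The level of Sec61a1 is uncertain as given above. Sec61a2 itself measured 34.2 ± 1.65 TPM with rMANF and 35.0 ± 3.01 TPM with vehicle.

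Sec62 and Sec63, the helpers of the channel, had no steady direction. Sec62 (chromosome 3, 30792875 to 30821263, plus strand) measured 53.7, 65.1 and 56.9 TPM in rMANF replicates 1, 2 and 3, against 73.2, 53.7 and 56.7 TPM in vehicle replicates 1, 2 and 3. Sec63 (chromosome 10, 42761496 to 42832514, plus strand) measured 29.4, 33.9 and 31.8 TPM in rMANF replicates 1, 2 and 3, against 40.4, 27.3 and 29.9 TPM in vehicle replicates 1, 2 and 3. For both genes the vehicle libraries spanned the whole rMANF range, with vehicle replicate 1 highest and vehicle replicate 2 lowest, in Sec62 level with rMANF replicate 1. The differences of −0.05 ± 0.13 and −0.02 ± 0.15 (SE) turned to 0.08 and 0.14 without vehicle replicate 1 and to 0.01 and 0.03 without rMANF replicate 1. Of the Sec62 exon bases, 11.7% overlap the antisense gene 4933429H19Rik, which measured at most 1.13 TPM in these libraries. Sec62 over Sec63 stayed between 1.79 and 1.97 in the 6 libraries.

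**Figure D4:**
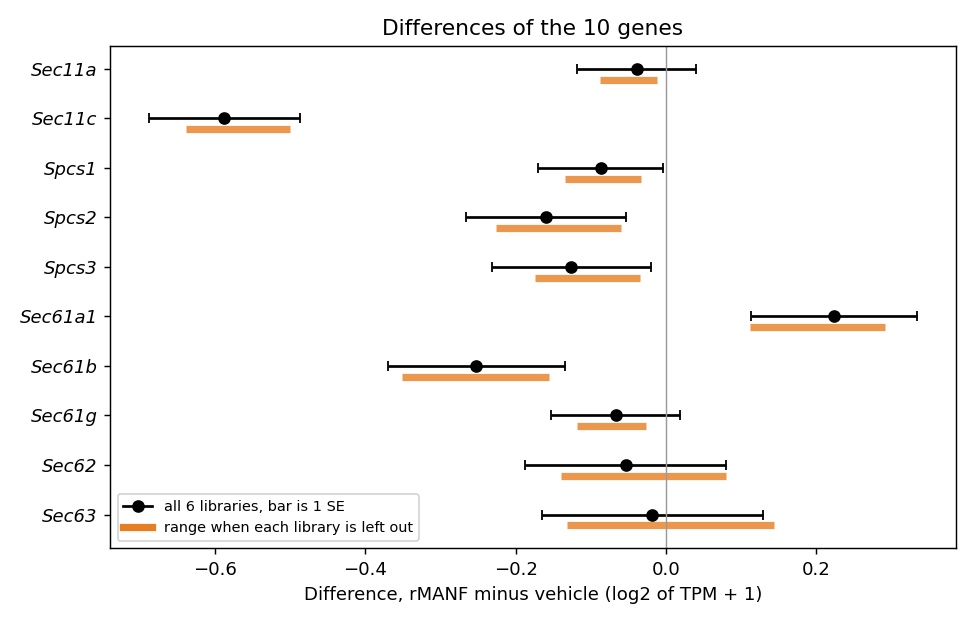
Difference of each gene, rMANF minus vehicle, on the log2(TPM + 1) scale. Points use all 6 libraries with bars of 1 SE, and orange bars span the 6 values obtained when each library is left out. Sec11c stays between −0.64 and −0.50, while Sec62 and Sec63 cross 0.

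Vehicle replicate 1 set much of the spread among these genes. It held the highest value of all 6 libraries for Sec11c, Spcs2, Spcs3, Sec62 and Sec63, and the lowest for Sec61a1. Vehicle replicate 2 held the highest Sec61b and Sec61g, and rMANF replicate 2 the highest Sec11a and Sec61a1.

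Markers of other cell types were compared beside Sec11c. The 14 macrophage markers summed to 2146 to 2959 TPM in rMANF libraries and 3644 to 4210 TPM in vehicle libraries, with 14 of 14 tested members lower on average and 8 lower without overlap, beside 9.02% of all tested genes. The 8 T and NK cell markers summed to 14.5 to 29.0 TPM with rMANF and 33.0 to 92.4 TPM with vehicle, and the 10 skeletal muscle markers to 7.13 to 18.0 TPM with rMANF and 25.3 to 1041 TPM with vehicle. Most of that muscle signal came from vehicle replicate 2 (1041 TPM), against 97.6 and 25.3 TPM in vehicle replicates 1 and 3. The summed fibroblast markers overlapped at 213 to 302 TPM with rMANF and 285 to 432 TPM with vehicle, but 6 of 7 were lower on average and 4 of 7 (Col1a2, Dcn, Lum and Postn) lower without overlap. The summed endothelial markers overlapped at 101 to 125 TPM with rMANF and 83.0 to 111 TPM with vehicle. Only 1 of 7 (Egfl7) was lower on average, and Cdh5 and Tie1 lay higher without overlap, beside 18.9% of all tested genes. The 3 melanocyte markers with a row, of 7 listed, overlapped too, at 7.44 to 10.2 TPM with rMANF and 7.96 to 12.6 TPM with vehicle. Nearly all of that sum was Mitf, at 7.36 to 12.2 TPM, with Pmel at most 0.341 TPM and Sox10 at most 0.160 TPM. Markers of plasma cells, which secrete heavily, were low apart from Sdc1. The 8 plasma and B cell markers summed to 191 to 221 TPM with rMANF and 133 to 176 TPM with vehicle. Sdc1 alone gave 185 to 213 TPM with rMANF and 124 to 168 TPM with vehicle. It lay higher without overlap, beside 18.9% of all tested genes. Jchain, at most 6.70 TPM, averaged 1.36 TPM with rMANF and 3.58 TPM with vehicle, with overlapping groups. Mzb1, below the filter, was at 0.129, 0 and 0 TPM in rMANF replicates 1, 2 and 3, against 0.386, 0.862 and 0.758 TPM in vehicle replicates 1, 2 and 3. Tnfrsf17 was listed at 0 in 5 of 6 libraries. Of the 4 list genes that passed the filter, Jchain and Cd79b were lower and Sdc1 and Cd79a higher on average with rMANF. The part of any of these cells in the Sec11c difference was not tested.

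The 5 genes whose profile over the 6 libraries was most like that of Sec11c were Ccdc152, Xlr4b, Cd69, Sectm1a and Lacc1, by the root mean square difference between log2(TPM + 1) profiles centred on their own means, which was 0.06 to 0.07 log2 units over 11334 genes compared. Ccdc152 measured 29.1 ± 1.08 TPM with rMANF and 45.9 ± 4.40 TPM with vehicle, and Lacc1 14.1 ± 1.48 TPM with rMANF and 20.6 ± 1.11 TPM with vehicle (SD, n = 3 each). Cd69, an early activation marker of lymphocytes, was lowly expressed at 3.46 ± 0.413 TPM with rMANF and 6.25 ± 1.02 TPM with vehicle. Of the other signal peptidase and translocon genes the closest was Spcs2, at 0.23 log2 units, with 1104 genes nearer to Sec11c than it was. The Sec11c profile holds the contrast that chose the set, so nothing is read from the distance of the other members.

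The genes that act beside signal peptidase and the channel were examined in 7 lists, of which 67 genes were tested. Limma called 0 of the 67 in either direction at a Benjamini-Hochberg adjusted p of 0.05, as it called 0 (0%) of all 12865 genes, and 7 lay higher and 7 lower at an unadjusted p under 0.05, against 2642 of all genes. At a threshold of 0.10 it called 1 of the 67, Bag6, and 2.73% of all genes. Without overlap 7 of the 67 lay lower and 10 higher, beside 9.02% and 18.9% of all tested genes, and the median difference was 0.01, beside 0.04 over all tested genes.

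Among the 9 tested genes of the signal recognition particle and its receptor, 3 lay lower and 2 higher without overlap. Over all tested genes the shares were 9.02% and 18.9%. Lower were the Alu-domain genes Srp9 and Srp14 and the assembly subunit gene Srp19, and higher were Srp68 and the receptor gene Srpr. Srp9 measured 146, 141 and 117 TPM in rMANF replicates 1, 2 and 3, against 185, 162 and 162 TPM in vehicle replicates 1, 2 and 3 (log2 difference −0.33 ± 0.11, SE; limma, adjusted p = 0.155). Srp19 differed by −0.31 ± 0.12 (limma, adjusted p = 0.194). Srpr measured 160, 176 and 179 TPM in rMANF replicates 1, 2 and 3, against 158, 136 and 141 TPM in vehicle replicates 1, 2 and 3, a difference of 0.24 ± 0.09 (limma, adjusted p = 0.182). The list had a median of near 0, with 5 genes below 0 and 4 above.

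Next to the channel, Tram1, which encodes a membrane protein that contacts chains entering it, measured 55.7, 60.3 and 50.0 TPM in rMANF replicates 1, 2 and 3, against 92.0, 65.3 and 64.5 TPM in vehicle replicates 1, 2 and 3. Its groups did not overlap, and its difference of −0.40 ± 0.15 (SE) missed the threshold (limma, adjusted p = 0.193). It was the 1 gene of 7 in its list to separate, beside 9.02% of all tested genes that lay lower without overlap. The translocon-associated protein genes Ssr1, Ssr2, Ssr3 and Ssr4, whose products assist weak signal peptides, all overlapped, with Ssr4 furthest from 0 at 0.18 ± 0.13 (limma, adjusted p = 0.495). Tram2 differed by 0.12 ± 0.15 (limma, adjusted p = 0.696).

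Of the 12 oligosaccharyltransferase genes, whose complex adds N-glycans to chains as they emerge, Dad1 lay lower and Ddost higher without overlap. Those shares over all tested genes were 9.02% and 18.9%. Dad1 measured 45.5, 40.0 and 41.4 TPM in rMANF replicates 1, 2 and 3, against 53.2, 58.7 and 49.4 TPM in vehicle replicates 1, 2 and 3 (−0.34 ± 0.10, SE; limma, adjusted p = 0.130). Ddost differed by 0.14 ± 0.07 (limma, adjusted p = 0.323), and Ostc by −0.16 ± 0.10 (limma, adjusted p = 0.413). The list's median was −0.01.

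Among the 15 genes of the endoplasmic reticulum membrane complex and the multipass translocon, which insert membrane proteins, Nomo1 and Emc10 lay higher and Tmco1 lower without overlap. Over all tested genes 18.9% lay higher and 9.02% lower in this way. Nomo1 measured 90.1, 93.7 and 84.5 TPM in rMANF replicates 1, 2 and 3, against 65.8, 72.4 and 78.4 TPM in vehicle replicates 1, 2 and 3 (0.31 ± 0.09, SE; limma, adjusted p = 0.139). Emc10 differed by 0.37 ± 0.12 (limma, adjusted p = 0.149) and Tmco1 by −0.27 ± 0.11 (limma, adjusted p = 0.210). The list's median was 0.03.

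The tail-anchor insertion list had a median of 0.14 over 7 tested genes, with 3 genes higher and 0 lower without overlap, beside 18.9% and 9.02% of all tested genes. Without vehicle replicate 1 its median was 0.09, beside 0.08 over all tested genes. This route places proteins such as Sec61b and Sec61g, whose single membrane anchor lies at the end of the chain. Bag6, which encodes a chaperone that holds such anchors in the cytosol, measured 84.9, 84.2 and 86.8 TPM in rMANF replicates 1, 2 and 3, against 57.2, 60.8 and 69.4 TPM in vehicle replicates 1, 2 and 3. The 3 rMANF values lay close together and above all vehicle values (0.45 ± 0.09, SE; limma, adjusted p = 0.0893). With library weights Bag6 was called (limma, adjusted p = 0.0393), as 1 of 737 genes called among all 12865 with those weights. Its partners Sgta and Ubl4a differed by 0.17 ± 0.08 and 0.13 ± 0.07 (limma, adjusted p = 0.298 and 0.364).

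Of the signal peptide peptidase family, which cuts within membranes, 3 genes were tested. In this list 1 gene lay higher without overlap, beside 18.9% of all tested genes. Sppl2b lay higher without overlap, at 34.5, 29.9 and 26.8 TPM in rMANF replicates 1, 2 and 3, against 20.5, 20.6 and 26.3 TPM in vehicle replicates 1, 2 and 3 (0.42 ± 0.13, SE; limma, adjusted p = 0.150). Sppl2a differed by −0.25 ± 0.14 and Sppl3 by 0.03 ± 0.09 (limma, adjusted p = 0.339 and 0.879). The 14 target genes of XBP1 and ATF6, transcription factors of the unfolded protein response that also drive genes of the entry machinery, had a median of −0.03 that turned to 0.09, with 12 of 14 above 0, without vehicle replicate 1, and to 0.04 with library weights. Of these 14, Hyou1 lay higher (0.27 ± 0.09; limma, adjusted p = 0.156) and Manf lower (−0.25 ± 0.11; limma, adjusted p = 0.238) without overlap, and Edem1 differed by 0.13 ± 0.10 (limma, adjusted p = 0.484). Shares of all tested genes without overlap were 18.9% higher and 9.02% lower.

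**Figure D5:**
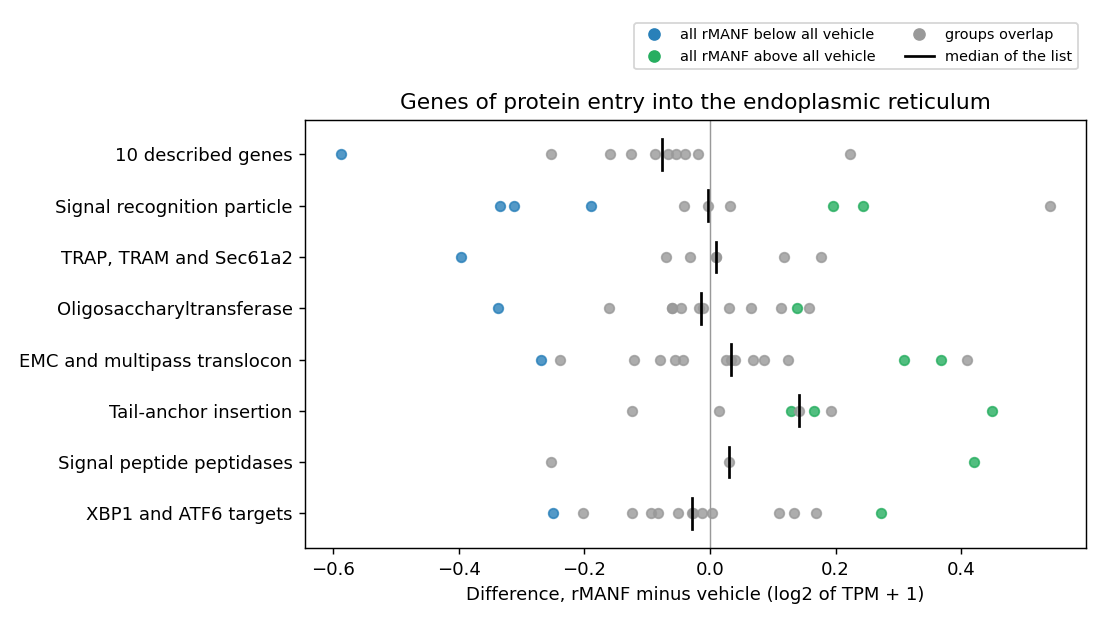
Difference of each tested gene, rMANF minus vehicle, on the log2(TPM + 1) scale, by list. Each point is a gene, blue where all rMANF values lie below all vehicle values, green where they lie above and grey where the groups overlap, and black ticks are list medians. Sec11c lies at −0.59, the observation for which the 10 genes were chosen, so nothing is read from its place. The median is −0.08 for those 10 genes and runs from −0.03 to 0.14 over the 7 lists.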

How the data were processed

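Gene expression was measured by RNA sequencing in 6 samples labelled heart, 3 rMANF and 3 vehicle. Per the labels' protocols, RNA was extracted with QIAzol and Nextera XT, a kit that leaves strand unmarked, was used for the libraries. The submitters' processing notes name mm10 and the tools HTSeq 0.11.0, Salmon 0.14.1, fastp and cutadapt. The step that gave the final values and the annotation are not stated. The authors deposited log2 TPM values per gene and library. Their antilogs summed to within 11.6 TPM of the full TPM scale, so no offset had been added, and a value of −9 was read as 0 TPM. Depth is unknown and no counting interval was computed.

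Fold changes are differences of log2(TPM + 1), rMANF minus vehicle, a scale that compresses those of weakly expressed genes. Genes averaging 1 TPM or more (12865) were fitted with limma 3.58.1 in R 4.3.3 (mean-variance trend, no covariate, two-sided, Benjamini-Hochberg adjustment over all of them), and the procedure was tested on simulated data. Limma p-values weigh a difference against the spread between the samples of a group, moderated over all genes. Paralogue levels were compared by exact sign-flip tests over all 6 libraries of both groups. The 10 genes, the lists and the tests were chosen with earlier results of these data known. Named were the 10 genes, Sec61a2, the 3 genes of smallest p in each list and the 5 genes most like Sec11c, leaving out predicted models, Rik clones and pseudogenes. Genes lying without overlap and the copies and antisense genes that share sequence were named after their values were seen. Annotation and sequences came from GENCODE M21 (GRCm38, the assembly named mm10), with coding sequences of the principal isoforms aligned in Biopython 1.88. The list genes Srp54b, Camlg and Hm13 were not analysed here. Alternatives covered the pseudocount, the filter, 3 scalings, the variance trend, library weights, the replicate block and each library left out. Summing Sec61a1 with Gm44170 was added after seeing the data.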

Additional observations from a re-analysis of the deposited data

How the results depend on the processing

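The Sec11c difference, which chose the set, ran from −0.64 to −0.50 over the 16 alternatives. Its groups did not overlap under the 3 scalings, the alternatives that could have made them overlap. The count of members lower without overlap was 3 with quantile normalization and 3 with median-of-ratios scaling (Sec11c, Spcs2 and Spcs3), and 1 to 5 when each library was left out, the 5 without rMANF replicate 2 (Sec11a, Sec11c, Spcs2, Spcs3 and Sec61g). Over all tested genes the same count was 1160 with all libraries and as listed, 1590 with quantile normalization, 1834 with median-of-ratios scaling and 1918 without rMANF replicate 2. The count higher was 0 to 1 when each library was left out, the 1 being Sec61a1 without rMANF replicate 3 or vehicle replicate 2. The median of the 10 genes ran from −0.14 to −0.05. Signs of Sec62 and Sec63 also turned with library weights (0.01 and 0.06). The cause of these shifts was not tested. The Sec11c to Sec11a level turned to −0.020 without vehicle replicate 1 and was otherwise up to 0.14 when a library was left out.

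Limma called 0 of all genes at 0.05, 351 at a threshold of 0.10, 737 with library weights, and 0 to 4 when each library was left out, 4 without vehicle replicate 1 and 2 without rMANF replicate 1. The count among the 67 list genes was 2 with library weights (Bag6 and Hyou1) and 0 under the other alternatives. With the replicate number as a block limma called 3 genes. Same-numbered samples did not visibly deviate together (correlations of −0.07, 0.03 and 0.05 across genes). With 3 samples per group such values cannot exclude a pairing by number. In this balanced layout the block leaves each difference as it is. The median difference of all genes, 0.04, was −0.01 to 0.02 under the 3 scalings and 0.08 without vehicle replicate 1. The tail-anchor median ran from 0.09 to 0.19 over the alternatives, and the medians of the other 6 lists each changed sign under at least 1 of them. Unknown depth limits what can be said of the low copies.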
